A study of Mus musculus with 12 samples.

Results

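Solute carriers are membrane proteins that move amino acids, sugars, carboxylates, nucleotides, vitamins, lipids and metal or other inorganic ions across the cell surface and across the membranes of mitochondria, lysosomes, the endoplasmic reticulum and the Golgi. They do not split ATP themselves: some let a solute run down its own gradient, others couple it to sodium, protons or a second solute moving with or against it. Family numbers follow sequence likeness, so that a family mostly shares a kind of cargo, and a tumour cell line draws on many families at once for nutrients and for the disposal of acid. The 128 genes described here were chosen by their measured level and name: they are those of the deposited table whose symbol has the form Slc, a family number, the letter a and a member number, and whose FPKM averaged at least 1 over 12 libraries. FPKM is the level of a transcript per length and per mapped fragment of its library, scaled by a constant. Of 29937 genes in the table, 277 had such a symbol, 7 of these (Slc2a1, Slc3a2, Slc7a11, Slc11a2, Slc31a1, Slc31a2 and Slc40a1) were left out by name, and 142 of the remaining 270 lay below the level. The 128 genes belong to 35 families. Carriers with other symbols, such as those of family 35 with the letters b to f, were not included.

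Poly(A) RNA was sequenced from mouse 4T1 cells, a mammary carcinoma line, in 4 groups of 3 libraries titled OAP2, Oxa, APAP and PBS. The labels give the cells as wild type and adherent and expand none of these treatment names, and no dose or time is stated in the sources used here. The PBS libraries are the controls: their treatment is labelled DMSO, and their values stand in columns named CON, matched to PBS by inference because no other group lacks a drug. The series text calls the material a xenograft grown from the cells, whereas the sample labels describe a culture. Nothing in the labels says whether the 3 libraries of a group came from separate cultures or animals, so the p-values speak of the spread among these libraries alone. In bulk RNA, fewer cells that express a gene and less RNA per cell cannot be told apart.

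Total counts lay between 64071751 and 71500487 per library, and the 128 genes took 1.17% to 1.48% of them. The 6 epithelial markers (Epcam, Cdh1 and 4 keratins) summed to an FPKM of 852 to 1293 in every library. One control library stood apart. In PBS 2 the 7 red blood cell markers summed to 231.9 and the 7 neutrophil markers to 66.7, against 0.07 to 0.37 and 0.01 to 0.72 in the other 11 libraries. The 7 macrophage markers summed to 47.7 in PBS 1 and to 12.1 to 20.8 elsewhere, and the fibroblast, endothelial, T and NK and B cell lists each to at most 2.30. In a principal component analysis of the 128 genes, PBS 2 lay at 3.90 on the first component (44.1% of the variance), beside the 3 Oxa libraries (2.55 to 2.81), while PBS 1 and PBS 3 lay at -0.96 and -1.14. The OAP2 libraries lay between -2.57 and -0.44 and the APAP libraries between -1.94 and -1.47. Of the 128 genes, 22 were highest and 28 lowest in PBS 2. The numbers of carriers called against PBS, and the fold changes of those called, are therefore given below with and without it. The part of the blood cell markers in these results was not tested.

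The most abundant carrier transcripts were those of amino acid uptake. Slc7a5, the light chain of the LAT1 exchanger for large neutral amino acids, averaged 338 FPKM over the 12 libraries, and Slc1a5, the ASCT2 carrier for glutamine and other small neutral amino acids, 113. Among mitochondrial carriers, Slc25a5, an ADP/ATP exchanger, stood at 102 and Slc25a3, the phosphate carrier, at 78.5. Slc25a5 has a close paralog, Slc25a4, with which reads may be shared. The proton-coupled lactate and pyruvate carrier Slc16a1 (MCT1) averaged 66.3 and the phosphate importer Slc20a1 64.6. Metal carriers were led by the zinc carriers Slc39a7 (40.02) and Slc30a4 (38.8), and vitamin carriers by Slc19a2 for thiamine (16.4) and Slc23a2 for ascorbate (16.3). The leading gene was Slc29a1 (26.7) for nucleosides, Slc12a4 (26.1) for potassium and chloride, Slc4a11 (30.1) among pH and anion carriers, Slc44a2 (17.9) for lipids, Slc50a1 (12.7) for sugars, Slc35a4 (11.4) in the nucleotide sugar family and Slc22a23 (7.18) among organic ion carriers.

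**Figure D1:**
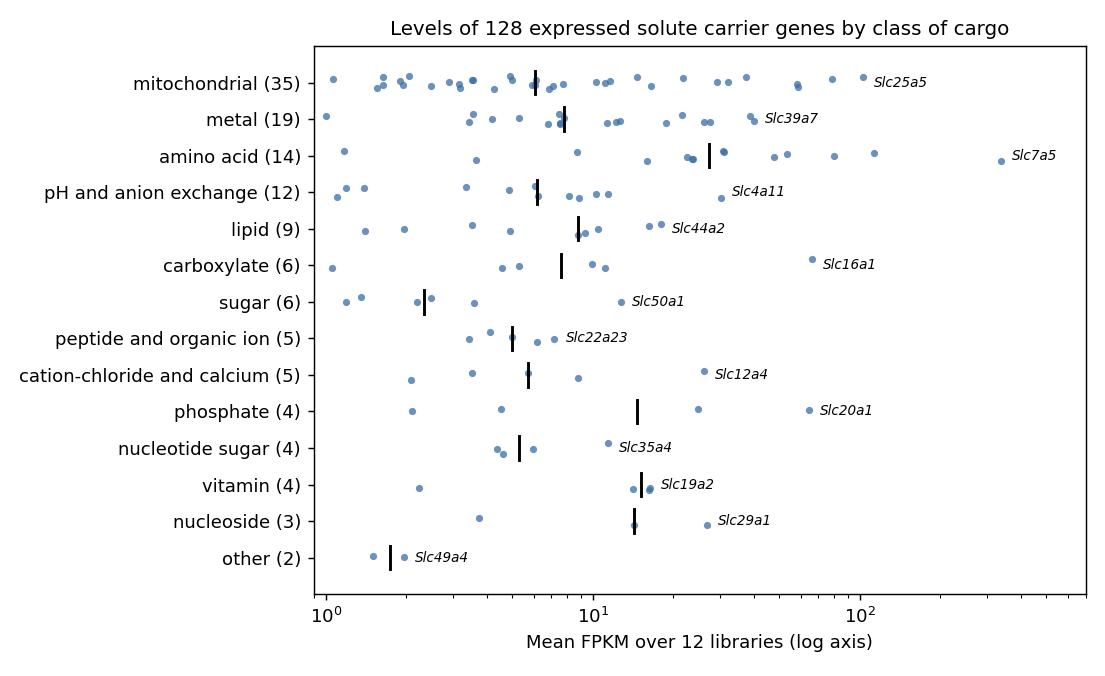
Mean FPKM over the 12 libraries (x axis, logarithmic) of the 128 solute carrier genes, 1 point a gene, in rows by class of cargo with the number of genes in parentheses; black bars are class medians and the highest gene of each class is named. Amino acid carriers have the highest median (27.3) and the highest single gene, Slc7a5 at 338; the 35 mitochondrial carriers spread from 1.07 to 102.

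The median of the 128 mean levels was 7.13 FPKM. There were 51 genes at 10 or more, 10 at 50 or more and 3 at 100 or more, and 18 below 2. The genes nearest above the level of 1 were Slc41a3 (1.00), Slc16a11 (1.05) and Slc25a14 (1.07), and those nearest below it were Slc26a10 (0.991), Slc24a3 (0.976) and Slc35a5 (0.933). Some genes were on the list through 1 group. Slc41a3 averaged 1.92 FPKM in OAP2 and 0.696 over the other 9 libraries, Slc9a9 averaged 0.887 over the 9 libraries outside OAP2, and Slc16a11 0.882 over the 9 outside APAP. Without APAP, Slc41a3 averaged 0.947. The OAP2 levels thus helped to choose Slc41a3 and Slc9a9, and their differences between OAP2 and other groups are described below with no test. For most genes the group means lay within 1.5-fold of each other. The median ratio of the highest to the lowest group mean was 1.30. The median coefficient of variation within groups was 13.015%, which is a spread of single libraries and not of group means. The ratio was 1.5 or more in 32 genes and 2 or more in 6. These 6 were Slc41a3 (6.13), Slc9a9 (3.95), Slc16a11 (2.38), Slc26a9 (2.15), Slc39a11 (2.11) and Slc39a3 (2.03). The group mean was highest in OAP2 for 51 genes, in Oxa for 29, in APAP for 21 and in PBS for 27, and lowest in Oxa for 54, in OAP2 for 29, in PBS for 23 and in APAP for 22.

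Differences were tested with edgeR's quasi-likelihood test on the deposited counts of all 12036 genes that passed a filter on low values. The threshold for a call was an adjusted p (Benjamini-Hochberg) below 0.05, and the 128 carriers all passed the filter. Some difference among the 4 groups was called for 31 of the 128 (24.2%), where 17.1% of all genes tested were called. Slc41a3 and Slc9a9, which OAP2 levels helped to choose, are among the 31 and raise that share. OAP2 against Oxa gave 25 called carriers (19.5%, against 12.9% of all genes), 20 higher and 5 lower in OAP2. For the higher direction the background was 6.02% and for the lower 6.91%. Leaving aside Slc41a3 and Slc9a9, 18 of 126 were higher (14.3%) and 5 lower. Oxa against PBS gave 17 (13.3%, against 10.1%), 5 higher (background 5.35%) and 12 lower (4.76%). OAP2 against PBS gave 14 (10.9%, against 5.25%), 6 higher (2.14%) and 8 lower (3.11%), or 5 higher (3.97% of 126) without Slc41a3 and Slc9a9. These comparisons share libraries and are not independent of each other.

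**Figure D2:**
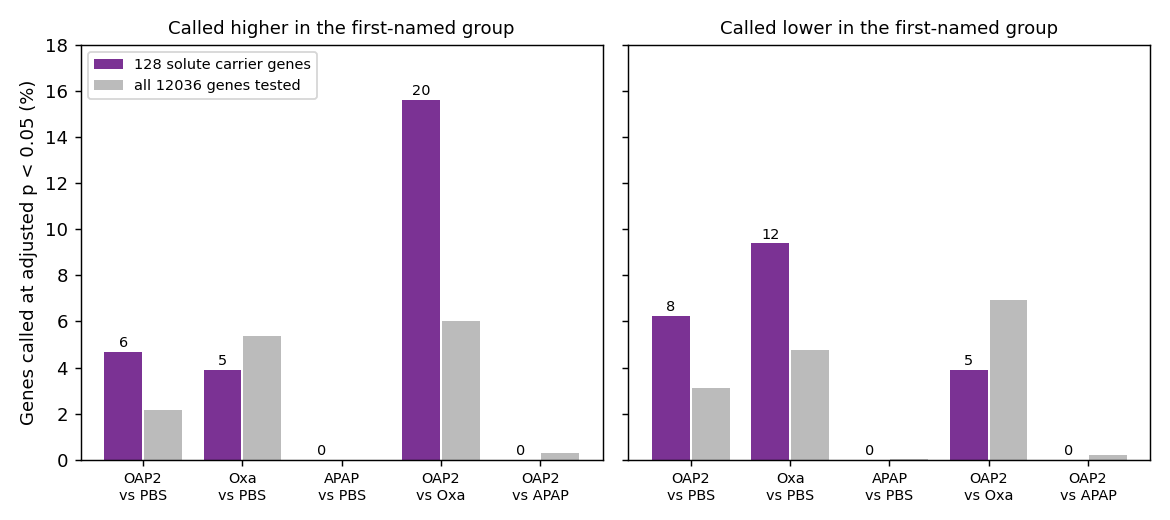
Share of genes (y axis, %) called at adjusted p below 0.05 by edgeR, for the 128 solute carrier genes (purple, with the number called) and all 12036 genes tested (grey), as higher (left panel) or lower (right panel) in the group named first, for 5 comparisons. The tallest bar is OAP2 over Oxa, with 20 carriers (15.6%) higher against 6.02% of all genes. Slc41a3 and Slc9a9, which OAP2 levels helped to choose, are among the 20.

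Against Oxa, Slc1a5, Slc16a1, Slc19a2, Slc33a1, Slc30a4 and Slc39a11 were higher in OAP2 and kept the call when any 1 of the 12 libraries was left out. Slc41a3 and Slc9a9 did so too, which is no evidence for them because of how they came onto the list. These 8 genes are given by library. Slc1a5 (chromosome 7, 16781340 to 16798274) had 147, 127 and 111 FPKM in OAP2, against 88.8, 94.2 and 76.5 in Oxa. Every OAP2 library lay above every Oxa library, a log2 fold change of 0.57 ± 0.12 (SE; adjusted p = 0.0105). APAP and PBS libraries ranged from 107 to 130 and overlapped the OAP2 values. Slc16a1 (chromosome 3, 104638668 to 104658462) had 79.4, 77.2 and 76.2 FPKM in OAP2, against 54.6, 54.7 and 48.4 in Oxa. The groups did not overlap (0.56 ± 0.11, 0.00711), and PBS lay between them at 62.7 to 68.0.

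Slc19a2 (chromosome 1, 164249046 to 164265385), the high-affinity thiamine importer, had 21.0, 19.3 and 17.9 FPKM in OAP2, against 13.2, 11.8 and 11.4 in Oxa. The groups were apart (0.68 ± 0.13, adjusted p = 0.00487), but PBS 2 alone, at 21.5, stood above all 3 OAP2 libraries, with PBS 1 and PBS 3 at 15.3 and 15.98. Slc33a1 (chromosome 3, 63933507 to 63964768) carries acetyl-CoA into the endoplasmic reticulum and was counted with the lipid carriers. Its FPKM was 10.3, 10.2 and 10.1 in OAP2, against 7.38, 5.93 and 6.09 in Oxa. The 3 OAP2 values were nearly equal and all higher than Oxa (0.66 ± 0.11, adjusted p = 0.00280).

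Of the zinc carriers, Slc30a4 (chromosome 2, 122681233 to 122702663) loads zinc from the cytosol into vesicles, and its loss in the lethal milk mouse leaves milk poor in zinc. It had 42.6, 42.96 and 42.8 FPKM in OAP2, against 34, 31.5 and 35.4 in Oxa (0.35 ± 0.08, adjusted p = 0.00970). Slc39a11 (chromosome 11, 113244853 to 113650079), the zinc carrier ZIP11, had 13.5, 14.2 and 16.5 FPKM in OAP2, against 7.06, 6.96 and 6.93 in Oxa. The Oxa libraries lay within 0.13 FPKM of each other and below all 9 other libraries, of which PBS 2 was the lowest at 10.1. For OAP2 over Oxa the log2 fold change was 1.08 ± 0.14 (adjusted p = 0.000522).

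The largest fold changes were in 2 genes of low level. Slc41a3 (chromosome 6, 90604725 to 90646412), of a family of magnesium carriers, had 2.48, 1.64 and 1.64 FPKM in OAP2, against 0.23, 0.30 and 0.41 in Oxa. APAP libraries stood between, at 1.14 to 1.19, and PBS 2 was at the level of Oxa (0.22) while PBS 1 and PBS 3 were at 0.87 and 0.73. The log2 fold change of OAP2 over Oxa was 2.63. Slc9a9 (chromosome 9, 94669909 to 95230445), the sodium-proton exchanger NHE9 of endosomes, had 1.94, 1.88 and 1.44 FPKM in OAP2, against 0.37, 0.56 and 0.40 in Oxa, a log2 fold change of 1.98. Here too PBS 2 (0.43) fell among the Oxa libraries and away from PBS 1 and PBS 3 (1.07 and 1.27).

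**Figure D3:**
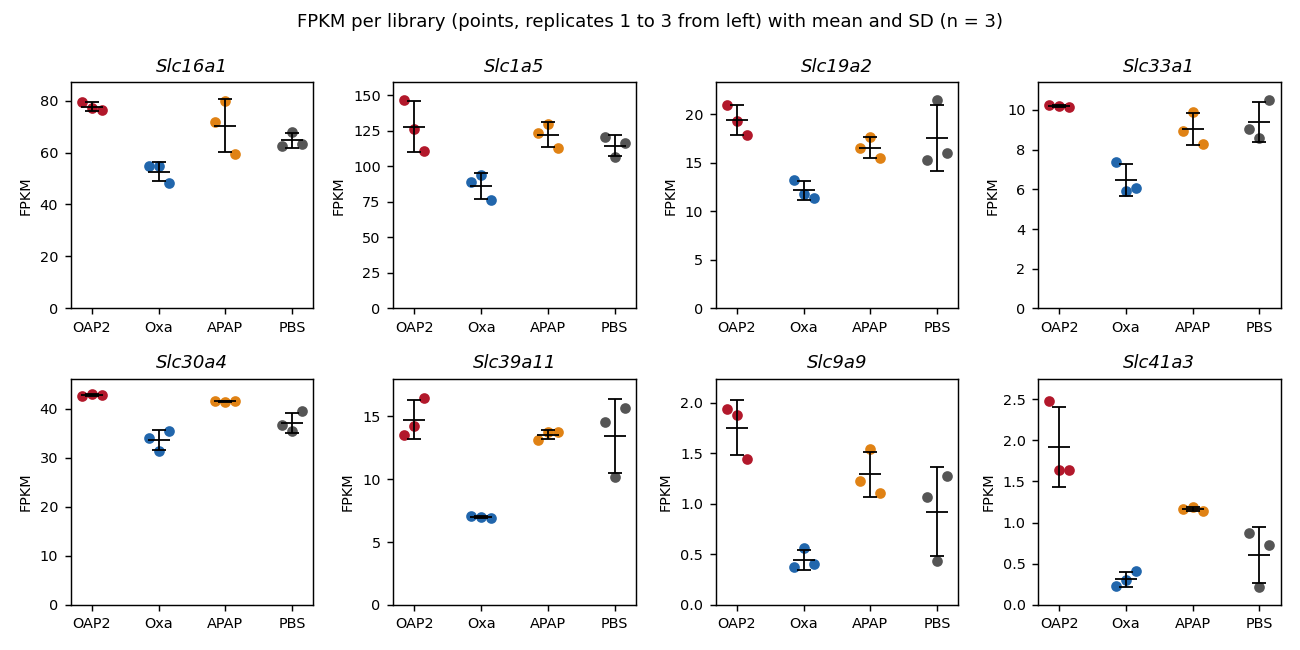
FPKM (y axes, from 0) of the 8 carriers whose call for OAP2 against Oxa held without any 1 library, in OAP2, Oxa, APAP and PBS (x axis); points are libraries and bars the mean and SD (n = 3). In each panel the 3 OAP2 points lie above the 3 Oxa points, and in Slc9a9 and Slc41a3 the low PBS point, PBS 2, lies at the Oxa level.

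The 250 bases before the RefSeq start (GRCm38.p6) of 5 of these 8 genes are shown, those whose printed window lies outside the gene and next to its start in the deposited table. Capitals mark matches, on either strand, to 4 motifs: TGATGNAA (C/EBP-ATF), TGCNCNC (metal response), TGACNNNGC (antioxidant response) and CACGTG (E-box).
Slc16a1: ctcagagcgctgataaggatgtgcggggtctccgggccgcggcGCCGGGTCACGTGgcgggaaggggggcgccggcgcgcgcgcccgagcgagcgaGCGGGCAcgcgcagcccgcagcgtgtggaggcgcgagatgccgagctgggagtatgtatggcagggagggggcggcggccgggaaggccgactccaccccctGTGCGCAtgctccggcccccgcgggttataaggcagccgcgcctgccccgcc
Slc19a2: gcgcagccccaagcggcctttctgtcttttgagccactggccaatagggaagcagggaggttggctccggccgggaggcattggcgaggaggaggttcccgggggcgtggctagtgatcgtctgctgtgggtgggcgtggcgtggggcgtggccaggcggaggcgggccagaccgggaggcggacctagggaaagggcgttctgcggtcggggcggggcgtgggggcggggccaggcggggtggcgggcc
Slc30a4: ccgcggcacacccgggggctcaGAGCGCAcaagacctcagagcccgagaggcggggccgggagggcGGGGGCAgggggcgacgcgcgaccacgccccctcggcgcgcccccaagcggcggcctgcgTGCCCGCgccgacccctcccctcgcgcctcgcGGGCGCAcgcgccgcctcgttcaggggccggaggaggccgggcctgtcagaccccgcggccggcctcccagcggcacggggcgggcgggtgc
Slc39a11: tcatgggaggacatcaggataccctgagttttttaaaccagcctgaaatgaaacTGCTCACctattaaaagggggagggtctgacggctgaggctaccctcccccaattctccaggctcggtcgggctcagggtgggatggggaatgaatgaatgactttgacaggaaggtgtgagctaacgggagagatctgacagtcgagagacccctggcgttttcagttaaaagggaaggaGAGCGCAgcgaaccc
Slc9a9: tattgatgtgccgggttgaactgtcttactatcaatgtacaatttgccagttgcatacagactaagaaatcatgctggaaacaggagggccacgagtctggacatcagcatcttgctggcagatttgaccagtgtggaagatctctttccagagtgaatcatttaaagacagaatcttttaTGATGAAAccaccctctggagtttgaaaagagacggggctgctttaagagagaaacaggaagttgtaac

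They lie at chr3:104638414-104638663 (plus strand), chr1:164248796-164249045 (plus), chr2:122702664-122702913 (minus), chr11:113650093-113650342 (minus, 1 of 2 RefSeq promoters of Slc39a11) and chr9:94669642-94669891 (plus). Slc16a1 held an antioxidant match that overlaps its E-box and 2 metal response matches, Slc30a4 held 4 metal response matches and Slc39a11 held 2. Slc9a9 held 1 C/EBP-ATF match and Slc19a2 held none of the 4. RefSeq promoters, taken as 250 bases before to 50 after a start, were found for 96 of the 128 carriers (130 promoters). An E-box was in 17.7% of them and in 7.15% of all 32851 promoters, an antioxidant match in 23.1% and 12.4%, a metal response match in 61.5% and 51%, and a C/EBP-ATF match in 3.08% and 3.97%. Among the 19 promoters matched to 16 of the 20 carriers higher in OAP2 than in Oxa, the shares were 26.3%, 26.3%, 52.6% and 5.26% in the same order. The last share is 1 promoter, that of Slc9a9, which OAP2 levels helped to choose, so it is no evidence. The 32851 promoters were not limited to genes expressed here, whereas the carriers were chosen by level, so these shares compare unlike sets. A match is a run of letters, not a binding site.

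The other carriers higher in OAP2 than in Oxa, by class of cargo, rose by less than 2-fold. In the metal class 5 of 19 genes were called higher (26.3%, against 6.02% of all genes) and 1 lower (5.26%, against 6.91%). Slc41a3 is among the 5 and raises the share, but is no evidence, because OAP2 levels helped to choose it. Besides the 3 above, the zinc carriers Slc39a9 (0.42) and Slc30a5 (0.28) rose. Slc39a13, the zinc carrier ZIP13 of the secretory pathway, fell, with 9.22, 8.01 and 7.65 FPKM in OAP2, against 15.7, 16.9 and 13.8 in Oxa (-0.90 ± 0.20, adjusted p = 0.0108). All 6 carriers of family 30, mostly zinc exporters, had a positive fold change, while the 10 carriers of family 39 split 5 to 5.

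Among pH and anion carriers 4 of 12 were called higher (33.3%, against 6.02% of all genes). They were Slc9a9, the Golgi exchanger Slc9a8 (0.52), the sodium bicarbonate importer Slc4a7 (0.48) and the sulfate carrier Slc26a2 (0.60). Slc9a9 is counted here and raises the share, but is no evidence, because OAP2 levels helped to choose it. Of 6 carboxylate carriers Slc16a1 and Slc16a6 (0.42) rose (33.3%, against the same 6.02%), and all 6 fold changes were positive. In the amino acid class Slc1a5 and the exchanger light chain Slc7a6 (0.40) rose (14.3%), and 11 of 14 fold changes were positive. The most abundant gene, Slc7a5, did not pass, with 424, 410 and 299 FPKM in OAP2, against 300, 329 and 246 in Oxa (0.37, adjusted p = 0.14). Both vitamin carriers called, Slc19a2 and Slc23a2 (0.43), rose (50% of 4). So did both carnitine and organic cation carriers called, Slc22a21 (0.61) and Slc22a5 (0.53), which lie near each other on chromosome 11 and are close paralogs. They are 40% of the 5 genes in the peptide and organic ion class.

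In the sugar families, Slc5a3, the sodium-coupled myo-inositol importer, averaged 4.34 ± 0.77 FPKM in OAP2 and 2.66 ± 0.13 in Oxa (SD, n = 3 each; 0.71 ± 0.16, adjusted p = 0.0124). Slc5a6, which carries biotin and pantothenate rather than sugar, averaged 1.99 ± 0.45 in OAP2 and 3.25 ± 0.31 in Oxa, and fell (-0.71 ± 0.19, adjusted p = 0.0258). The phosphate importer Slc20a1 fell as well (-0.49), with 48 to 54.1 FPKM in OAP2 and 68.3 to 77.8 in Oxa. Of the 35 mitochondrial carriers 3 were called (8.57%, against 12.9% of all genes). Slc25a43, whose cargo is not assigned here, rose (0.66), the citrate carrier Slc25a1 (-0.52) and the oxoglutarate-malate exchanger Slc25a11 (-0.41) fell, and the class median was -0.03.

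**Figure D4:**
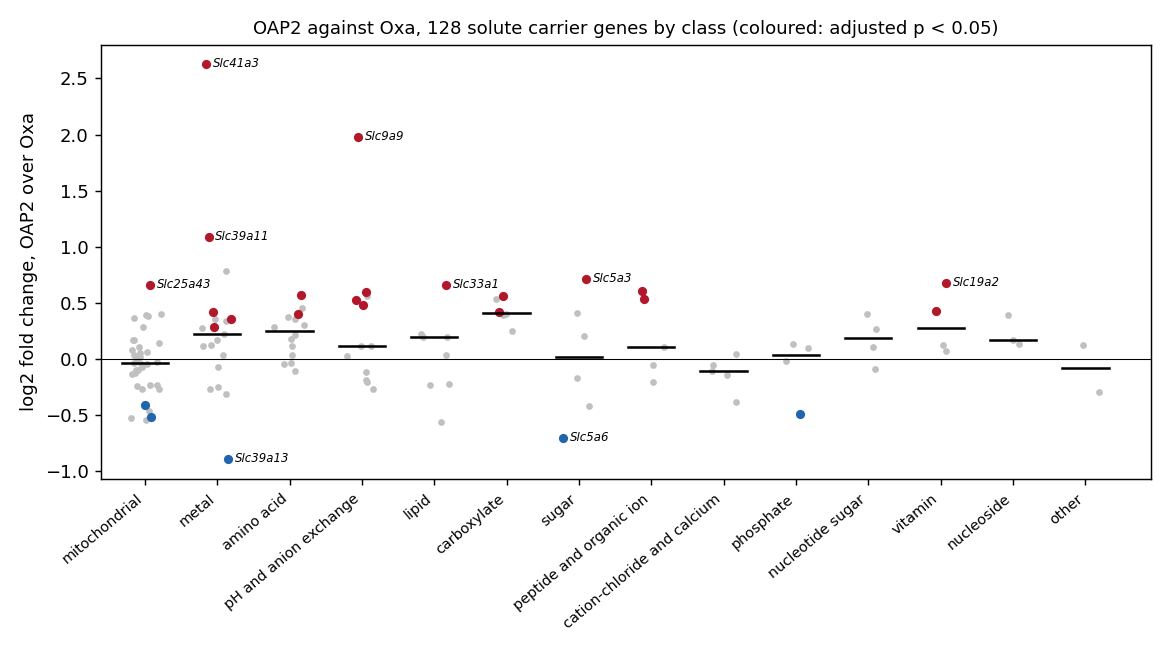
Log2 fold change of OAP2 over Oxa (y axis) of the 128 solute carrier genes, 1 point a gene, by class of cargo (x axis); red and blue points were called higher and lower in OAP2 at adjusted p below 0.05, grey points were not, and black bars are class medians. The carboxylate class has the highest median (0.41) and the mitochondrial class sits near 0 (-0.03).

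Over all 128 carriers the median log2 fold change of OAP2 over Oxa was 0.11, against 0.00 over all genes tested, with 81 positive and 47 negative. The OAP2 and Oxa libraries did not overlap in FPKM for 56 carriers (background 36.1%), 37 of them higher in OAP2 (15.6%). Slc41a3 and Slc9a9, which OAP2 levels helped to choose, are among the 81 and the 37. The number called fell to 10 without OAP2 1, 12 without OAP2 2, 14 without Oxa 1, 10 without Oxa 2, 12 without Oxa 3 and 13 with no filter on low values. In that order these were 7.81%, 9.38%, 10.9%, 7.81%, 9.38% and 10.2% of carriers, against 7.27%, 8.97%, 6.45%, 5.72%, 7.4% and 3.56% of all genes. Slc41a3 and Slc9a9 are among the carriers called in each of these fits. They are no evidence and raise the carrier shares, so the small excess without OAP2 1 or OAP2 2 cannot be read as one of carriers. It was 39 (30.5%) without PBS 2, which enters only through the shared spread and without which 22.8% of all genes were called. The 17 calls other than the 8 above each ended without at least 1 of the OAP2 or Oxa libraries.

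Against PBS, more carriers were lower than higher in Oxa. In the metal class Slc39a11, given by library above, was the gene of 19 that was called lower (-0.94 ± 0.14, adjusted p = 0.00288). That is 5.26% of the class, against 4.76% of all genes. Slc6a8 (chromosome X, 73673150 to 73682502), the creatine importer, had 11.2, 12.04 and 11.1 FPKM in Oxa, against 20.6, 13.3 and 23.5 in PBS. All Oxa libraries were lower than the lowest control, PBS 2, and the log2 fold change was -0.73 ± 0.15 (adjusted p = 0.0117). Both calls held without any 1 of the 12 libraries, but that of Slc6a8 ended in a fit of the 6 Oxa and PBS libraries alone. Slc22a21, an organic cation and carnitine carrier, fell by 0.76 on the log2 scale and the lysosomal histidine and peptide carrier Slc15a4 by 0.57. Among pH and anion carriers the chloride carrier Slc26a9 (-0.82), Slc9a8 (-0.61) and Slc4a7 (-0.51) fell. Slc33a1 also fell, with a mean of 6.47 ± 0.80 FPKM in Oxa and 9.38 ± 1.00 in PBS (SD, n = 3 each; -0.53 ± 0.11, adjusted p = 0.0128). Without PBS 2 the fold changes were -1.10 (Slc39a11), -0.93 (Slc6a8), -0.92 (Slc22a21), -0.78 (Slc15a4), -1.03 (Slc26a9), -0.74 (Slc9a8), -0.55 (Slc4a7) and -0.58 (Slc33a1).

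Both called vitamin carriers fell in Oxa. Slc19a1, the reduced folate carrier, had 11.7, 12.4 and 11.1 FPKM in Oxa, against 15.9, 20.8 and 15.7 in PBS (-0.57 ± 0.12, adjusted p = 0.0131). PBS 2 was the highest control, and without it the fold change was -0.42. Slc19a2 fell by 0.52, or by 0.35 without PBS 2. The mitochondrial glycine carrier Slc25a38 fell by 0.50, and Slc25a25, a calcium-regulated ATP-magnesium and phosphate exchanger, by 0.36. PBS 2 was the highest of the 12 libraries for both (6.57 and 10.6 FPKM). Neither was called without it, at -0.36 for Slc25a38 (adjusted p = 0.0629) and -0.27 for Slc25a25 (adjusted p = 0.0670).

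The 5 rises in Oxa were in genes of several classes. Slc49a4 (chromosome 16, 35694062 to 35769356), which encodes a lysosomal membrane carrier, had 2.53, 2.22 and 2.30 FPKM in Oxa, against 1.27, 1.30 and 1.72 in PBS. The groups did not overlap (0.73 ± 0.15, adjusted p = 0.00999), and the call held without any 1 library but ended in the fit of the 6 libraries alone. Slc6a9, the glycine importer GlyT1, had 38.9, 35.5 and 36.01 FPKM in Oxa, against 27.9, 20.03 and 23.7 in PBS, again with no overlap (0.63 ± 0.14, adjusted p = 0.0141). The carnitine-acylcarnitine exchanger Slc25a20 (0.58), the fatty acid carrier Slc27a4 (0.58) and Slc25a11 (0.42) rose too. Without PBS 2 the 5 fold changes were 0.67 (Slc49a4), 0.52 (Slc6a9), 0.57 (Slc25a20), 0.41 (Slc27a4) and 0.44 (Slc25a11). PBS 2 was the lowest library for Slc6a9 and Slc27a4. The median over the 128 carriers was -0.04, against -0.01 over all genes, and the groups did not overlap for 38 carriers (background 29.1%). The 14 calls other than Slc39a11, Slc6a8 and Slc49a4 each ended without at least 1 library. Without PBS 2, 32 carriers were called (25%), 10 higher and 22 lower, a share no higher than that of all genes in the same fit (25.5%), of which 14.2% were higher and 11.2% lower. The count was 10 without Oxa 1, 6 without Oxa 2, 6 without Oxa 3, 9 without PBS 3, 11 with no filter on low values and 4 in a fit of the 6 libraries alone. In that order these were 7.81%, 4.69%, 4.69%, 7.03%, 8.59% and 3.12% of carriers, against 4.45%, 3.96%, 4.86%, 5.52%, 2.43% and 4.35% of all genes.

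Within OAP2 against PBS the smallest adjusted p were those of Slc49a4 and Slc26a9. Slc49a4 had 2.65, 2.80 and 2.22 FPKM in OAP2, against the PBS values given above, and all OAP2 libraries were higher (0.85 ± 0.15, adjusted p = 0.00640). Slc26a9 (chromosome 1, 131744022 to 131771504), a chloride channel and anion exchanger of epithelia, had 2.43, 2.49 and 1.81 FPKM in OAP2, against 5.26, 3.34 and 5.87 in PBS. Its OAP2 libraries all lay below the lowest control, PBS 2 (-1.09 ± 0.19, adjusted p = 0.00642). Slc25a25 (chromosome 2, 32414487 to 32451422) had 6.20, 5.98 and 6.69 FPKM in OAP2, against 8.02, 10.6 and 10.04 in PBS (-0.59 ± 0.11, adjusted p = 0.00754). These 3 calls held without any 1 of the 12 libraries but ended in a fit of the 6 libraries alone. Without PBS 2 the fold changes were 0.79 (Slc49a4), -1.29 (Slc26a9) and -0.50 (Slc25a25). The promoters of Slc49a4 and Slc26a9 are shown, marked as above, as those of the rise and the fall with the smallest adjusted p in this comparison.
Slc49a4: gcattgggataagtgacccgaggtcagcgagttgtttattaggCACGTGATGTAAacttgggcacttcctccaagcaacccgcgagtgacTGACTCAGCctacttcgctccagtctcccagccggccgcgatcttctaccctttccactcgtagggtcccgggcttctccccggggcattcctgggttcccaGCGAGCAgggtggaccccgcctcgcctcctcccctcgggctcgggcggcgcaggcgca
Slc26a9: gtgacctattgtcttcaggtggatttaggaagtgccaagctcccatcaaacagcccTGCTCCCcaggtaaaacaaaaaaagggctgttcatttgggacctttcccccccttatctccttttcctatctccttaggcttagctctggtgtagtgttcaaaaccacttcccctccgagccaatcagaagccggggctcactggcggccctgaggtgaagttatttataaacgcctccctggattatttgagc

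They lie at chr16:35769371-35769620 (minus strand) and chr1:131743772-131744021 (plus strand). Slc49a4 held 1 match to each of the 4 motifs, its E-box overlapping the C/EBP-ATF match, and Slc26a9 held 1 metal response match in these bases.

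Further zinc carriers fell in OAP2. Slc39a13 had 9.22, 8.01 and 7.65 FPKM in OAP2, against 15.6, 9.38 and 19.4 in PBS (-0.82 ± 0.20, adjusted p = 0.0294), and Slc39a10, an importer at the cell surface, fell by 0.64. Without PBS 2 the fold changes were -1.06 for Slc39a13 and -0.53 for Slc39a10. The phosphate importer Slc20a1 had 54.1, 53.6 and 48 FPKM in OAP2, against 65.3, 94.5 and 67.9 in PBS (-0.54 ± 0.13, adjusted p = 0.0340). PBS 2 was its highest library, and without it the change was -0.35. The mitochondrial carriers Slc25a38 (-0.59) and Slc25a32, a folate and FAD carrier (-0.46), and the folate carrier Slc19a1 (-0.50) fell, each with PBS 2 as its highest library. Without PBS 2 their fold changes were -0.46, -0.34 and -0.35 in that order. Slc41a3 was higher by 1.67 on the log2 scale (1.27 without PBS 2), given with no test as above. Rises were called for Slc44a3 of the choline carrier family (0.93), for Slc6a9 (0.58), for Slc10a3 of the bile acid carrier family (0.45) and for the mitochondrial pyrimidine nucleotide carrier Slc25a36 (0.41). Without PBS 2 they were 0.96, 0.47, 0.52 and 0.30 in that order.

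The median over the 128 carriers was 0.06, against 0.00 over all genes, and OAP2 and PBS did not overlap for 32 carriers (background 18.7%). Slc41a3 and Slc9a9, which OAP2 levels helped to choose, are among the 32. Without PBS 2, 28 carriers were called (21.9%, against 16.4% of all genes), the 14 above among them. Of these 28, 11 were higher (8.59%, against 8.77%) and 17 lower (13.3%, against 7.65%). The other 11 calls each ended without at least 1 library. The count was 3 without OAP2 1, 3 without OAP2 2, 8 without Oxa 1, 9 without Oxa 2, 8 without Oxa 3, 9 without APAP 3, 9 without PBS 3 and 3 with no filter on low values. In that order these were 2.34%, 2.34%, 6.25%, 7.03%, 6.25%, 7.03%, 7.03% and 2.34% of carriers, against 2.09%, 2.6%, 3.94%, 4.25%, 4.04%, 3.82%, 3.66% and 1.25% of all genes. None was called in a fit of the 6 libraries alone (0.316% of all genes). With array quality weights 42 were called (32.8%, against 23.6% of all genes). Rises numbered 28 (21.9%, against 12.5%) and falls 14 (10.9%, against 11%). Slc41a3 is among the carriers called with weights, without PBS 2, without APAP 3 and without any 1 of the Oxa libraries. It raises those shares and is no evidence.

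APAP against PBS gave no called carrier by edgeR, by DESeq2 or by limma on log2 FPKM, with 13 of 128 at an unadjusted p below 0.05 in edgeR, where 0.0166% of all genes were called and 9.16% had such a p. The 5 carriers with the smallest p were Slc25a38 (-0.52, adjusted p = 0.310), Slc25a36 (0.36, 0.350), Slc25a5 (-0.70, 0.406), Slc39a10 (-0.42) and the lactate carrier Slc16a8 (0.78). Slc25a5 had 76.9, 86.9 and 85.9 FPKM in APAP, against 97.6, 218.6 and 101.4 in PBS. PBS 2 was more than double any other library, and without it the fold change was -0.22. Its paralog Slc25a4 had 42.8, 45.2 and 46.7 FPKM in APAP, against 53.2, 97.7 and 49.9 in PBS, with PBS 2 again highest. APAP and PBS did not overlap for 19 carriers (background 15.9%).

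OAP2 against APAP gave no called carrier by edgeR or by limma on log2 FPKM and 4 by DESeq2 (3.12%, against 3.94% of all genes). In edgeR 22 had an unadjusted p below 0.05 (0.474% of all genes were called and 15.2% had such a p). The smallest p were those of Slc49a4 (0.70, adjusted p = 0.0623), Slc26a9 (-0.73, 0.109), Slc25a20 (0.55, 0.123), Slc25a25 (-0.34, 0.166) and Slc44a3 (0.76, 0.168). For Slc49a4 the 3 OAP2 libraries (2.22 to 2.80 FPKM) lay above the 3 APAP libraries (1.43 to 1.61). Without PBS 2, 8 carriers were called (6.25%, against 7.61% of all genes), 2 without OAP2 3 (1.56%, against 1.04%) and 1 without PBS 3 (0.781%, against 0.656%). OAP2 and APAP did not overlap for 37 carriers (background 25.7%), Slc41a3, which OAP2 levels helped to choose, among them.

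**Figure D5:**
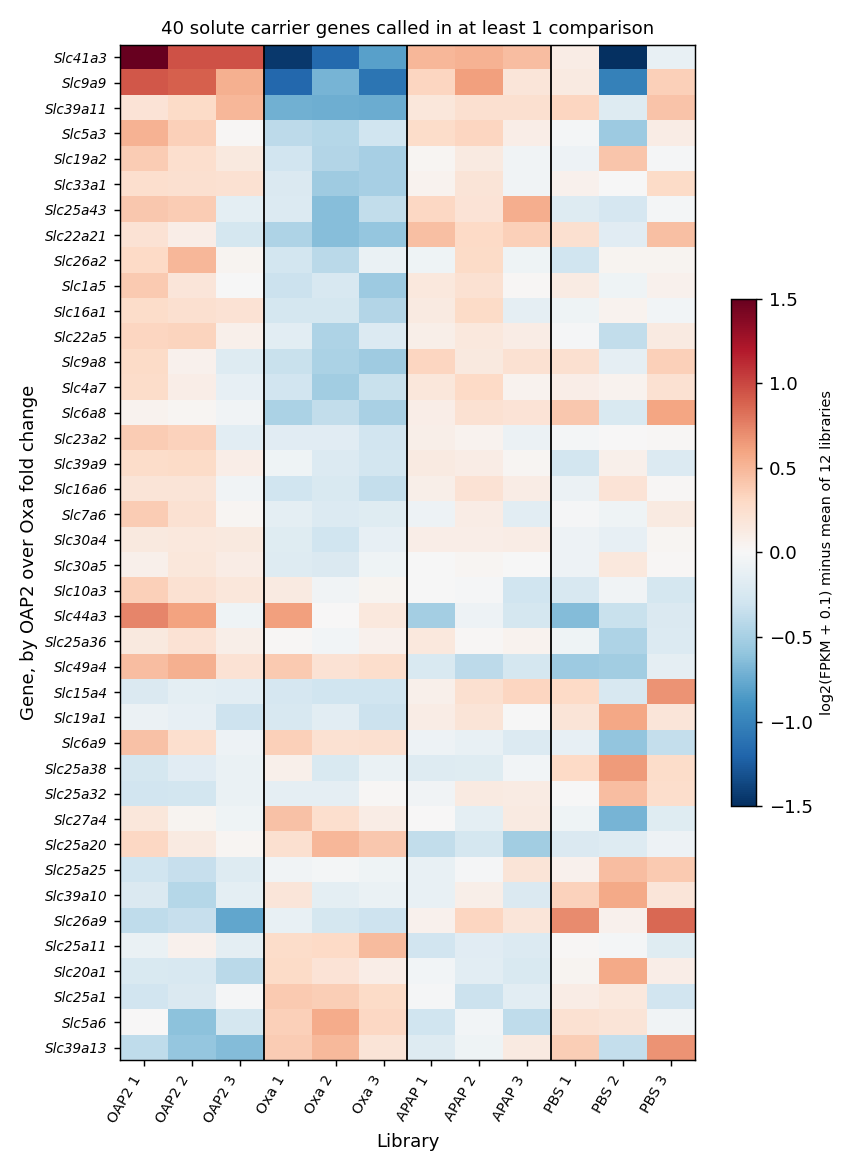
Log2(FPKM + 0.1) of the 40 solute carrier genes called in at least 1 comparison, minus the mean of the 12 libraries for that gene (colour, red above and blue below, limits -1.5 and 1.5), by library (x axis; OAP2, Oxa, APAP and PBS) and gene (y axis, by OAP2 over Oxa fold change). Slc41a3, Slc9a9 and Slc39a11 are low in the Oxa libraries, and PBS 2 differs from PBS 1 and PBS 3 in many rows.

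Of 29 listed partners and regulators of carriers, 24 were tested. In OAP2 against Oxa 3 were called higher and 2 lower (20.8%, against 12.9% of all genes). Arrdc4 and Arrdc3, arrestin family proteins that promote the removal of membrane proteins, rose: Arrdc4 averaged 11.4 ± 0.42 FPKM in OAP2 and 7.31 ± 0.59 in Oxa (SD, n = 3 each; 0.64, adjusted p = 0.000762), and Arrdc3 2.01 ± 0.28 in OAP2 and 1.11 ± 0.045 in Oxa (0.87, 0.00557). Mpc1, a subunit of the mitochondrial pyruvate carrier, rose by 0.67. The transcription factor gene Myc fell, at 222 ± 14 FPKM in OAP2 and 356 ± 12 in Oxa (-0.68, 0.000522), as did Slc9a3r2, a scaffold of sodium-proton exchangers (-0.59). In Oxa against PBS 5 were called (20.8%, against 10.1%): Slc9a3r1 (0.44) and Slc9a3r2 (0.82) rose and Arrdc3 (-1.05), Arrdc4 (-0.47) and the kinase gene Oxsr1 (-0.46) fell. In OAP2 against PBS 3 were called (12.5%, against 5.25%), with Txnip and Tfe3 higher and Myc lower. The call of Txnip (0.76, adjusted p = 0.04998) lay at the threshold. Its FPKM was 84.6, 76.8 and 49.8 in OAP2, against 48.2, 28.2 and 49.1 in PBS, with PBS 2 the lowest. Fold changes of the partners without PBS 2 are not given here. Among 20 tested ABC transporters, which do split ATP, 1 was called in OAP2 against PBS, Abcc3 (1.21, adjusted p = 0.0213), 1 in OAP2 against Oxa, Abcc4 (0.79, 0.0379), and none in the other 3 comparisons. That is 5% of the 20 in each of these 2 comparisons, where 5.25% and 12.9% of all genes were called.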

How the data were processed

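Libraries were made from poly(A) RNA with a dUTP step that marks strand, per the labels' protocols. The submitters' processing notes name, without their roles, StringTie 2.1.6, HISAT2 2.2.1, cutadapt 1.9, edgeR, DESeq2 and build mm9. Positions of 110 of the 128 carriers equal those of GENCODE M21, so they are given in GRCm38. The deposited estimated counts are whole numbers, not scaled between libraries by the authors, and were used for tests. The deposited FPKM, scaled by the authors to length and depth, were used for levels. How multi-mapped reads and strand were handled is not given in the sources used here, so paralogs and overlapping genes are less certain.

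The test took the 12036 genes that reached FPKM 1 in 3 or more of the 12 libraries. Counts, with TMM factors, went into edgeR 4.0.16 under R 4.3.3 (glmQLFit and glmQLFTest, 2-sided) with a mean for each of the 4 groups, and p-values were Benjamini-Hochberg adjusted over all of them. The common biological coefficient of variation was 18.1%. SE was approximated from the log2 fold change and the F statistic as their ratio, with F under a square root. Alternatives used limma 3.58.1, DESeq2 1.42.0, other scalings, filters and pseudocounts, library weights, a replicate block and leaving out libraries. Replicate numbers did not pair the libraries (18 same-numbered pairs, correlation of deviations -0.152 to 0.155).

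The carriers, classes (by family number) and lists were chosen with earlier results of these data known. Named were up to 12 largest rises and falls among called carriers of a comparison, or the 5 smallest p where fewer than 5 were called, plus the 2 highest genes and the smallest p of each class. Other genes named in counts of 5 or fewer, or for their values in PBS 2, were chosen after their values were seen. Promoter sequences are from RefSeq.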

Additional observations from a re-analysis of the deposited data

How the results depend on the processing

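Of 1452 values of 66 named gene results under the alternatives, 1131 kept their direction and side of the threshold, 299 lost the call, 22 gained one and 0 changed direction. The 66 were picked in these same data as called or of smallest p, which favours a kept direction. Some alternatives leave out a library of neither group compared. For OAP2 against PBS (14 carriers called) the count was 8 among carriers with a mean FPKM of at least 5, 3 with no filter on low values, 0 in a fit of the 6 libraries compared and 42 with array quality weights. For Oxa against PBS (17) it was 9, 11, 4 and 44 in the same order. For OAP2 against Oxa (25) it was 13 with no filter and 48 with weights. For APAP against PBS (0) it was 2 with weights. For OAP2 against APAP (0) it was 4 by DESeq2 (3.12%, against 3.94% of all genes), 3 in a fit of the 6 libraries (2.34%, against 2.38%) and 24 with weights. In these 2 comparisons no carrier was called by limma on log2 FPKM. Leaving out 1 library gave 3 to 28 for OAP2 against PBS, 6 to 32 for Oxa against PBS, 0 for APAP against PBS, 10 to 39 for OAP2 against Oxa and 0 to 8 for OAP2 against APAP. Leaving aside APAP against PBS, the highest counts all came without PBS 2. They were 21.9%, 25%, 30.5% and 6.25% of carriers, against 16.4%, 25.5%, 22.8% and 7.61% of all genes. The counts of all genes thus moved with those of carriers. In a fit without both PBS 2 and OAP2 3, the libraries with the lowest quality weights (0.131 and 0.239), chosen after seeing the data, the counts were 43, 45, 2, 54 and 20. These were 33.6%, 35.2%, 1.56%, 42.2% and 15.6% of carriers, against 23.6%, 35.4%, 0.598%, 28.5% and 11.9% of all genes. With weights the shares were 32.8%, 34.4%, 1.56%, 37.5% and 18.8% of carriers, against 23.6%, 36.5%, 0.872%, 28.9% and 13% of all genes. The cause of these shifts was not tested. Fits with the replicate number as a block called 11, 16, 0, 26 and 0, where the numbers did not pair the libraries. These were 8.59%, 12.5%, 0%, 20.3% and 0% of carriers, against 4.26%, 9.11%, 0.0249%, 11.8% and 0.249% of all genes. Relative log expression factors left every count as it was, and upper quartile factors gave 16, 19, 0, 28 and 0. The latter were 12.5%, 14.8%, 0%, 21.9% and 0% of carriers, against 5.63%, 10.5%, 0.0166%, 12.6% and 0.557% of all genes. Precision is limited by 3 libraries a group, and carriers near FPKM 1, such as Slc41a3 and Slc9a9, are measured with the fewest reads. These 2 genes were called for OAP2 against Oxa in every alternative fit, and raise the carrier shares there.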

Other observations

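Grouped by the locations in the gene ontology terms that the deposited table lists, 67 of the 128 carriers are placed at the plasma membrane, 32 in the mitochondrial inner membrane, 19 in the Golgi, 17 in the endoplasmic reticulum and 15 in lysosomes or endosomes, with some genes in more than 1 place. In OAP2 against Oxa, 15 of the plasma membrane carriers were called higher (22.4%, against 6.02% of all genes) and 2 lower (2.99%, against 6.91%), with 47 of 67 fold changes positive and a median of 0.13. Slc41a3 and Slc9a9 are among the 15 and are no evidence, because OAP2 levels helped to choose them. The share of 22.4% is raised by them. In the mitochondrial inner membrane 1 was called higher and 2 lower (9.38%, against 12.9% of all genes), with 12 of 32 positive and a median of -0.06. In the Golgi 3 were called higher and 1 lower (21.1%, against 12.9% of all genes), with 15 of 19 positive. In lysosomes or endosomes 2 were called higher (13.3%, against 6.02% of all genes), Slc30a4 and Slc9a9, and 11 of 15 were positive. Slc9a9 is again no evidence, because of how it came onto the list. Whether these places differ from each other was not tested.

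Slc39a3, a zinc importer that was not called in any comparison, also had its low values in Oxa and PBS 2: its FPKM was 4.40, 3.96 and 3.15 in OAP2 and 2.29, 2.32 and 2.09 in Oxa, and 4.43, 1.94 and 4.62 in PBS 1 to 3, with PBS 2 the lowest. It was named after its values were seen, for a ratio of 2.03 between the highest and lowest group means.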
